A study of Mus musculus with 3 samples.

Results

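The miR-34 family was examined in the livers of mice after a sham operation, after warm ischemia and after reperfusion. The family was taken by name as every mature microRNA listed as miR-34a, miR-34b or miR-34c, on either arm of its hairpin. This gave 6 of the 1908 microRNAs in the count data, namely mmu-miR-34a-5p, mmu-miR-34a-3p, mmu-miR-34b-5p, mmu-miR-34b-3p, mmu-miR-34c-5p and mmu-miR-34c-3p. All 6 had at least 1 read in some library, but only miR-34a-5p and miR-34c-5p had more than 3 reads in any library. The level of miR-34a-5p was highest in ischemia, and its fall from ischemia to reperfusion was the smallest of the called changes. The level of miR-34c-5p was lowest in the sham library. It was called higher after reperfusion than in sham, but not than in ischemia. Each of the calls of both arms was lost under some other scaling of the libraries.

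MicroRNAs are short RNAs that lower the output of messenger RNAs by pairing with them, mainly through the seed, which is bases 2 to 8 of the mature strand. The miR-34 genes are best known as direct transcriptional targets of the tumour suppressor p53, which is activated by DNA damage and other stress. Their products repress genes that drive the cell cycle and survival. In most adult tissues miR-34a is the main member, while miR-34b and miR-34c come from 1 shared primary transcript and are best known from lung, brain, testis and ciliated cells.

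The mature sequences show which members can recognise the same sites. They were taken from RefSeq (GRCm38.p6), where 5 of the 6 members were matched and miR-34c-5p was not. Each is written 5′ to 3′ with its seed in capitals. The first 4 share 1 seed and include both matched relatives of the miR-449 family, and the last 3 are the 3p arms.
mmu-miR-34a-5p: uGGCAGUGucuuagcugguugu
mmu-miR-34b-5p: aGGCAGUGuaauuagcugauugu
mmu-miR-449a-5p: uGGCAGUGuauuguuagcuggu
mmu-miR-449c-5p: aGGCAGUGcauugcuagcugg
mmu-miR-34a-3p: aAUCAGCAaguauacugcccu
mmu-miR-34b-3p: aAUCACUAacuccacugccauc
mmu-miR-34c-3p: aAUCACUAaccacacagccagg

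Among the 1603 listed microRNAs with a RefSeq sequence, 4 carried the seed GGCAGUG, and all 4 are shown. The seed AUCACUA was carried by miR-34b-3p and miR-34c-3p alone, and the seed AUCAGCA by miR-34a-3p alone. The nearest sequence to miR-34a-5p was miR-34b-5p, at 4 edits (substitutions, insertions or deletions). The nearest to miR-34b-3p and to miR-34c-3p was the other of the pair, at 5 edits. These distances are larger than the 1 mismatch that the aligner allowed. Sharing of reads between miR-34c-5p and other members was not examined.

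The precursor hairpins show where both arms lie, and each arm was counted on its own. They are shown for the members with both arms matched, with the arms in capitals and the 5p arm first.
mir-34a: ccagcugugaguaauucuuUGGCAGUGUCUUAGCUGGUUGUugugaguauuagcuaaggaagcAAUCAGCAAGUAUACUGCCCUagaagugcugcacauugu
mir-34b: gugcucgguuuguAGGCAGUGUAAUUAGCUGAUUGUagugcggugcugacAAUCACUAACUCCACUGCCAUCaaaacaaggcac

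On the mm9 build (NCBIM37), Mir34a lies on the plus strand of chromosome 4 (149442563 to 149442664). Mir34b (50911667 to 50911750) and Mir34c (50911139 to 50911215) lie on the minus strand of chromosome 9, with 451 bases between them. None of these hairpins overlapped another annotated gene. The nearest protein-coding genes were Gpr157, 18809 bases from Mir34a, and 4833427G06Rik, 955 bases from Mir34c.

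The mice were male C57BL/6J animals, an inbred strain, aged 8 to 10 weeks and given 6 to a group. In the Sham group the abdomen was opened without clamping and the liver was taken 90 min later. In the warm ischemia (WI) group the vessels and bile duct of the left and median lobes were clamped for 90 min. In the ischemia followed by reperfusion (IR) group the same clamp was followed by 120 min of restored flow. The surgery of IR mice thus lay further back, and reperfusion cannot be told apart from time since surgery. Each group had 1 small RNA library, and how many mice entered it is not given in the sources used here. No difference below has a replicate check, and each p-value compares 2 libraries and not 2 conditions.

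The libraries held 3784539 (IR) to 5064014 (WI) microRNA reads. Levels are in reads per 1000000 (CPM) of read totals after TMM scaling (trimmed mean of M-values), so that 1 read was worth 0.206 to 0.262 CPM. The limit that 0 reads allow, set at 3 reads, lay between 0.617 CPM (WI) and 0.785 CPM (IR). Triplets of values are given in the order Sham, WI, IR. Intervals are 95% and exact, and they cover counting error only. MiR-122-5p, the defining microRNA of hepatocytes, had 58752 to 92431 reads.

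MiR-34a-5p carried most of the family. Its reads numbered 135, 214 and 112, which is 34.1 CPM (28.6 to 40.4), 44.0 CPM (38.3 to 50.3) and 29.3 CPM (24.1 to 35.2). WI was the highest, and its interval was separate from that of IR but overlapped that of Sham. By read number miR-34a-5p ranked 182 of 653, 169 of 682 and 190 of 679 detected microRNAs.

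MiR-34c-5p was read 20, 44 and 43 times. Its levels were 5.05 CPM (3.08 to 7.80), 9.04 CPM (6.57 to 12.1) and 11.2 CPM (8.14 to 15.1). Sham was the lowest, and its interval was separate from that of IR. The intervals of WI and IR overlapped widely. By read number it ranked 298, 263 and 244.

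The other 4 members were at or below the limit of detection. MiR-34b-5p had 1, 3 and 2 reads, and miR-34c-3p had 0, 1 and 3. MiR-34a-3p had 1, 0 and 1, and miR-34b-3p had 0, 0 and 1. No change of these 4 was detectable at this depth, and no fold change is given for them. Summed over the 6 members, the family held 39.6, 53.9 and 42.4 CPM. MiR-34a-5p made up 86.0%, 81.7% and 69.1% of the family reads, and the share of miR-34c-5p was 12.7%, 16.8% and 26.5%.

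**Figure D1:**
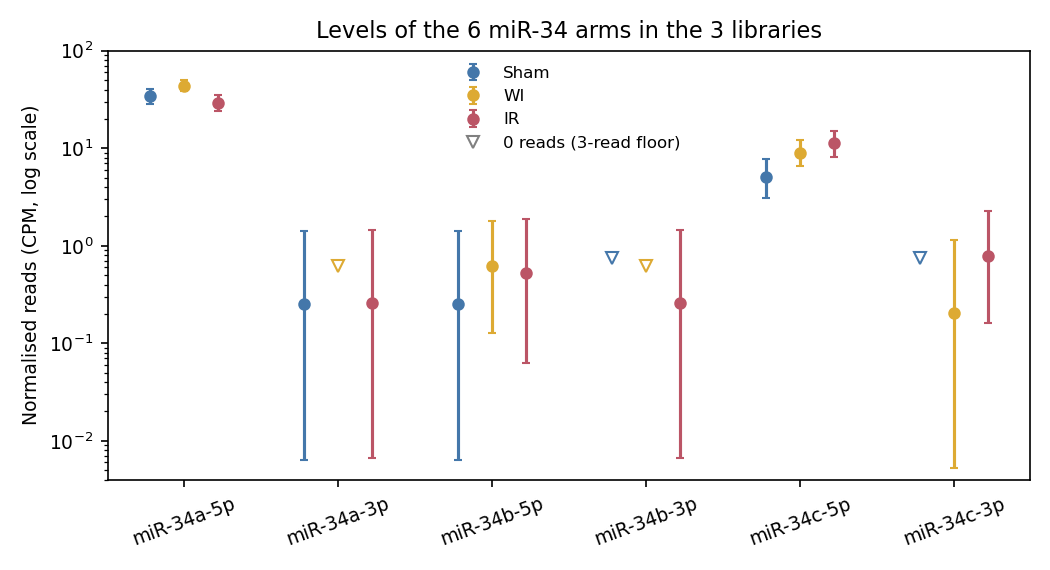
Level of each miR-34 arm (x axis) in CPM (log scale), with 1 point per library and bars for the exact 95% Poisson interval. Open triangles mark libraries with 0 reads, drawn at the 3-read limit; only miR-34a-5p and miR-34c-5p stand above that limit in every library.

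The comparison of WI with Sham asked what differed after ischemia alone. None of the 6 members was called, and only 2 of them stood above the 3-read limit. MiR-34b-3p had no reads in either library and was not tested. A call took both a change of more than 1.5-fold and an unadjusted Fisher's exact p below 0.01, the criteria of the study. The study names totals of mapped reads for its scaling, where totals of microRNA reads were used here. It reports more differing microRNAs than were called here, for WI and for IR against Sham. Across all 782 tested microRNAs 1.92% were called. MiR-34a-5p, at 34.1 CPM in Sham and 44.0 in WI, had a log2 fold change of 0.37 (SE 0.16) and a ratio of 1.29 (1.04 to 1.61, Fisher's exact p = 0.0206). MiR-34c-5p had a log2 fold change of 0.83 (SE 0.39), a ratio of 1.79 (1.03 to 3.21, Fisher's exact p = 0.0322). Both 5p arms had intervals above a ratio of 1 under this scaling, but neither passed the p threshold. With plain library totals the values were weaker (Fisher's exact p = 0.0941 for miR-34a-5p and 0.0586 for miR-34c-5p). Totals of genome-aligned reads made them stronger. MiR-34a-5p then had a log2 fold change of 0.52 (Fisher's exact p = 0.000878) and miR-34c-5p 0.98 (Fisher's exact p = 0.0117). Neither was called there, as miR-34a-5p stayed under 1.5-fold and miR-34c-5p missed the p threshold. After Benjamini-Hochberg adjustment over all tested microRNAs the values under TMM were 0.145 and 0.203 (Fisher's exact test). In these bulk samples, fewer cells of a type and less RNA per cell cannot be told apart.

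The comparison of IR with WI asked what differed once blood returned. MiR-34a-5p fell from 44.0 CPM under ischemia to 29.3 after reperfusion. The change was -0.59 on the log2 scale (SE 0.17), a ratio of 0.666 (0.525 to 0.841, Fisher's exact p = 0.000427, Benjamini-Hochberg adjusted 0.00286). It was the only called member, 1 of 6, of which 2 stood above the 3-read limit. Across all 789 tested microRNAs 9.25% were called, and 3.04% were called lower. The fall was 1.502-fold against a threshold of 1.5, which placed miR-34a-5p last by size among the 73 called microRNAs. The call was lost with 3 other scalings, with a pseudocount of 1 and after thinning to equal depth, where the log2 fold change lay between -0.51 and -0.57. An edgeR exact test that assumed a spread between libraries of 0.1 (coefficient of variation) lost it too (exact p = 0.0295).

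MiR-34c-5p was not called here. At 9.04 CPM in WI and 11.2 after reperfusion, it differed by 0.31 on the log2 scale (SE 0.31), a ratio of 1.24 (0.797 to 1.94, Fisher's exact p = 0.332). The interval spans decrease and increase. The sign depended on the scaling, since totals of genome-aligned reads gave a log2 fold change of -0.01. The WI library enters this comparison and the one with Sham, so the higher WI value and the later fall of miR-34a-5p are not independent.

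The comparison of IR with Sham asked what differed over the whole course. MiR-34c-5p rose from 5.05 CPM to 11.2. Its log2 fold change was 1.14 (SE 0.39), a ratio of 2.23 (1.28 to 3.995, Fisher's exact p = 0.00239, Benjamini-Hochberg adjusted 0.0161). It was the only called member, 1 of 6, where 7.11% of all 774 tested microRNAs were called and 5.68% were called higher. By size it stood at place 29 among the 55 called. The call was lost with totals of genome-aligned reads, where the log2 fold change was 0.97 (Fisher's exact p = 0.0113). The same edgeR exact test at 0.1 lost it as well (exact p = 0.0113).

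MiR-34a-5p had 34.1 CPM in Sham and 29.3 in IR. The log2 fold change was -0.22 (SE 0.18) and the ratio 0.859 (0.663 to 1.11, Fisher's exact p = 0.252). The interval of this ratio includes 1, so the direction is not resolved at this depth.

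**Figure D2:**
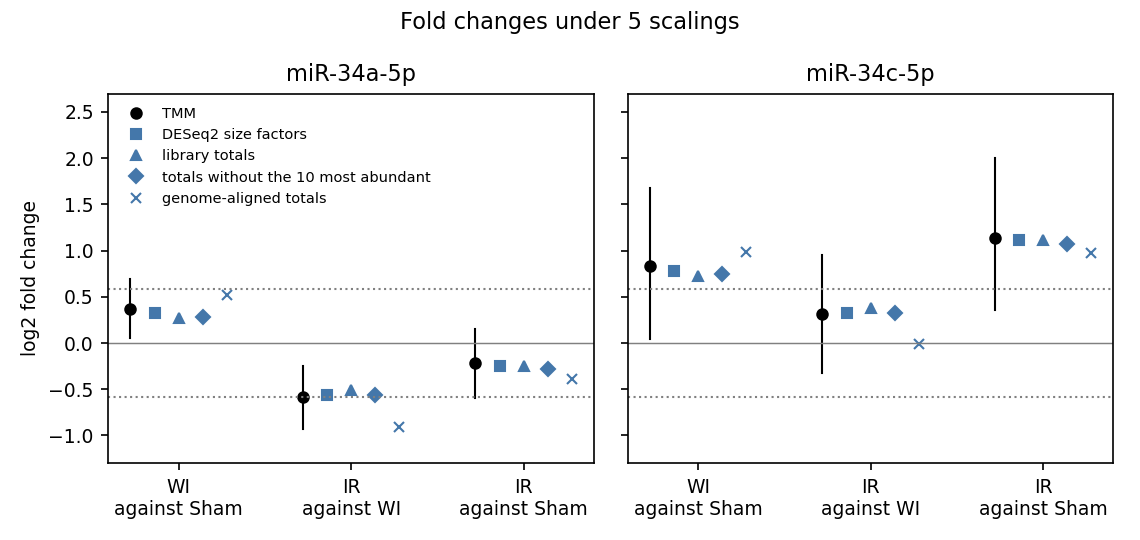
The log2 fold change (y axis) of miR-34a-5p and miR-34c-5p in the 3 comparisons (x axis), under 5 ways of scaling the libraries. The vertical line through the TMM value is its exact 95% interval, and dotted lines mark a fold change of 1.5; the TMM value of miR-34a-5p in IR against WI (-0.59) lies on that line.

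**Figure D3:**
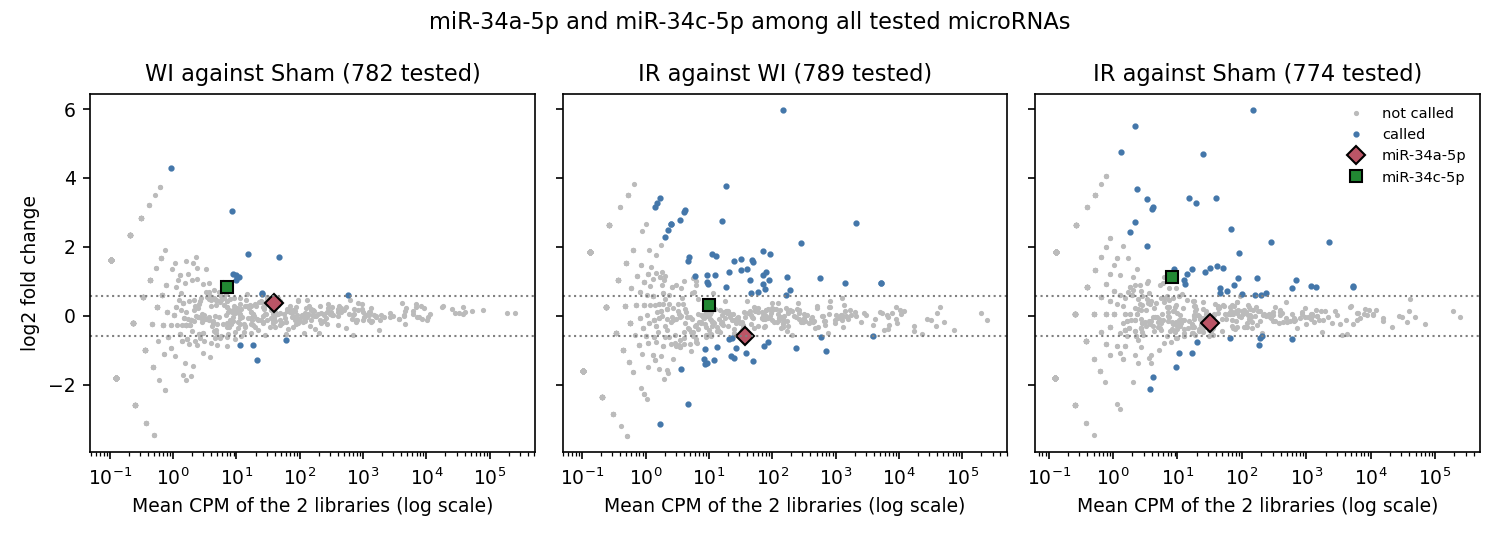
Mean level of the 2 libraries compared (x axis, CPM, log scale) against log2 fold change (y axis) for every tested microRNA, 1 panel per comparison. Blue points are called, dotted lines mark a fold change of 1.5, the red diamond is miR-34a-5p and the green square miR-34c-5p; the diamond lies at the edge of the called points in IR against WI, and the square lies among them in IR against Sham.

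The balance between both 5p arms was then compared within each library, which needs no scaling between libraries. For each read of miR-34a-5p the libraries held 0.148 (0.0877 to 0.238), 0.206 (0.145 to 0.286) and 0.384 (0.264 to 0.550) reads of miR-34c-5p. The Sham and IR intervals did not overlap. The ratio in IR was 2.58 times that in Sham (1.39 to 4.92) and 1.86 times that in WI (1.12 to 3.10), so both changes exceeded counting error. Between WI and Sham it differed by a factor of 1.39 (0.762 to 2.60), which is within counting error. Adding the reads of miR-34b-5p, from the same transcript as miR-34c, gave 2.58 (1.41 to 4.84) for IR over Sham. MiR-34a-5p remained the more abundant in each library, by 6.75, 4.86 and 2.60 times. Ligation and amplification differ between microRNAs, so these ratios describe reads and not molecules.

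**Figure D4:**
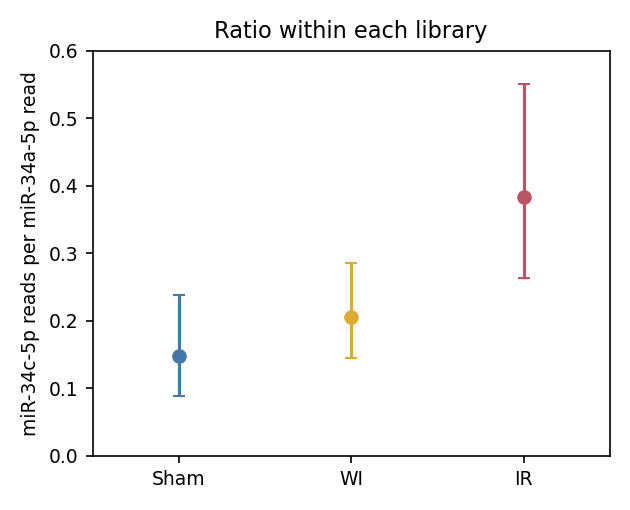
Reads of miR-34c-5p per read of miR-34a-5p (y axis) in each library (x axis), with bars for the exact 95% interval. From left to right the ratios are 0.148, 0.206 and 0.384, and the Sham and IR bars do not overlap.

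The arms of each hairpin were also compared. The 5p arm gave 461 of 463 reads of the mir-34a hairpin over the 3 libraries, a share of 99.6% (98.4 to 99.9). By library this share was 99.3%, 100% and 99.1%. For mir-34c the 5p arm gave 107 of 111 reads, 96.4% (91.0 to 99.0). All 20 reads were 5p in Sham, 44 of 45 in WI (97.8%, 88.2 to 99.9) and 43 of 46 in IR (93.5%, 82.1 to 98.6), with overlapping intervals. The mir-34b hairpin had 7 reads in all, 6 of them 5p (85.7%, 42.1 to 99.6). Although Mir34b and Mir34c are neighbours on 1 transcript, miR-34c-5p had 17.8 times the reads of miR-34b-5p over the 3 libraries. The ratio of miR-34b-5p to miR-34c-5p was 0.0561 (0.0201 to 0.126).

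The relatives that share the miR-34 seed were close to absent. MiR-449a-5p, a ciliated cell microRNA, had 1, 2 and 3 reads. MiR-449c-5p had 1, 0 and 0 reads, and miR-449b had none, which allows up to 0.785 CPM in the shallowest library. MiR-34a-5p thus supplied nearly all reads of the 4 microRNAs matched to this seed. MiR-34c-5p and miR-449b were not among these 4, so their seeds were not checked here.

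Other microRNAs linked to p53 were compared in the same tests. The list held 12 microRNAs that p53 is known to induce or to help process, and all 12 were measured. None was called for ischemia alone (WI/Sham), 3 for reperfusion (IR/WI, 2 higher and 1 lower) and 2 over the whole course (IR/Sham, 1 higher and 1 lower). The shares called over all tested microRNAs were 1.92%, 9.25% and 7.11%. The list had median log2 fold changes of 0.06, -0.07 and -0.06 for these comparisons, and all tested microRNAs had 0.05, -0.01 and 0.04.

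MiR-215-5p, which shares the seed of the abundant liver microRNA miR-192-5p, stood at 55.1, 57.1 and 117 CPM. It rose in IR over Sham by 1.09 on the log2 scale (SE 0.12, Fisher's exact p = 2.71e-21) and over WI by 1.04 (SE 0.11, Fisher's exact p = 8.82e-22). Its high value was thus in the reperfused library. MiR-200c-3p, an epithelial microRNA, rose from 3.70 CPM under ischemia to 8.37 after reperfusion, by 1.16 on the log2 scale (SE 0.43, Fisher's exact p = 0.00622). With 18 and 32 reads this call was lost with totals of genome-aligned reads (Fisher's exact p = 0.0474), after thinning (Fisher's exact p = 0.0122) and in the edgeR exact test at 0.1 (exact p = 0.0175). Against Sham, at 3.79 CPM, it was not called (Fisher's exact p = 0.0123).

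MiR-16-1-3p, the minor arm of a hairpin whose processing p53 is known to promote, stood at 14.4, 16.9 and 6.80 CPM. On the log2 scale it fell by 1.30 from WI (SE 0.32, Fisher's exact p = 2.42e-05) and by 1.07 from Sham (SE 0.34, Fisher's exact p = 0.00132). The major arm, miR-16-5p, was at 10598, 9708 and 10898 CPM and was not called, and it is named as the partner arm after its values were seen. It is listed without a hairpin number, so its reads cannot be assigned to this hairpin alone. The most abundant of the list, miR-192-5p, was at 243175, 258042 and 236770 CPM and was not called either. In all, 9 of the 12 were called in no comparison. Most tested microRNAs were not called in each comparison either, as the shares called were 1.92% (WI/Sham), 9.25% (IR/WI) and 7.11% (IR/Sham).

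**Figure D5:**
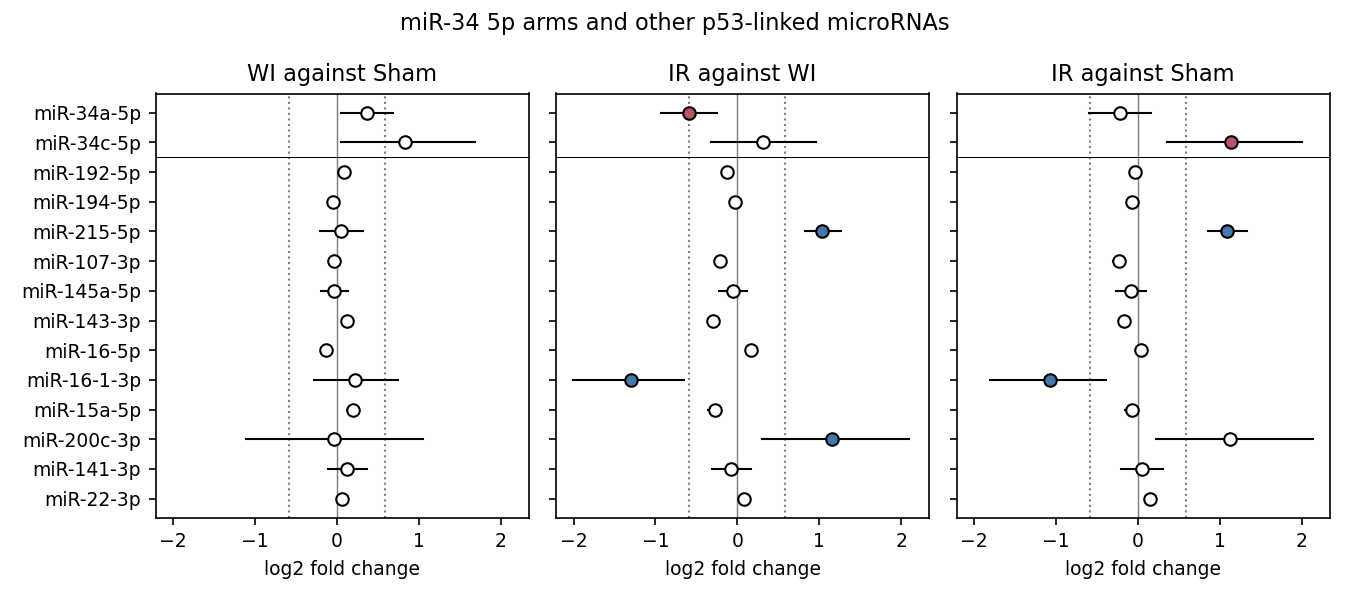
The log2 fold change (x axis) of miR-34a-5p, miR-34c-5p and 12 other microRNAs linked to p53 (y axis), 1 panel per comparison, with lines for the exact 95% interval (hidden by the point where narrow). Filled points are called and dotted lines mark a fold change of 1.5; no point is filled in the ischemia panel, and miR-215-5p and miR-16-1-3p are filled in both comparisons with IR.

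Markers of other cells were followed beside these changes. The summed level of 4 striated muscle microRNAs was 6.82, 24.3 and 76.1 CPM, mostly miR-133a-3p (27, 115 and 280 reads). Of these 4, only 1 was read in Sham, 3 in WI and all 4 after reperfusion. The defining muscle microRNA miR-1a-3p had 0, 1 and 6 reads. The summed level of 3 red blood cell microRNAs was 4926, 4651 and 8824 CPM. All 3 were called higher in IR against Sham, where 5.68% of all tested microRNAs were. In IR against WI 2 of the 3 were called higher, where 6.21% of all tested were. MiR-144-3p, at 79.8, 107 and 123 CPM, was not called there. These lists were highest in the same library as miR-34c-5p, and their part in its rise was not tested. The 4 leukocyte microRNAs summed to 3074, 3037 and 2792 CPM and the 5 epithelial ones to between 475 (WI) and 491 CPM (IR). Within the leukocyte list miR-223-3p, a microRNA of neutrophils and other myeloid cells, stood at 110, 109 and 236 CPM and was called higher in both comparisons with IR. MiR-142-3p stood at 110, 152 and 119 CPM, highest in WI, and was not called. MiR-142-5p, which made up most of the sum, stood at 2735, 2672 and 2342 CPM. MiR-150-5p stood at 119, 104 and 95.4 CPM. Both were lowest in IR, and neither was called. The 3 hepatocyte microRNAs summed to 333757, 361133 and 314969 CPM, highest in WI and lowest in IR, as was miR-34a-5p. Most of this sum was miR-192-5p, which is also on the p53-linked list. The log2 fold changes of the 3 ran from 0.09 to 0.25 in WI over Sham. In IR over WI they ran from -0.42 to -0.12, and none was called. The part of these cells in the changes of miR-34a-5p and miR-34c-5p was not tested. The 3 ciliated cell microRNAs summed to 2, 2 and 3 reads.

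The microRNAs with the most similar course were found by distance in the plane of the log2 fold changes of WI and of IR over Sham, among 316 others with at least 50 reads. For miR-34a-5p they were miR-101a-3p at a distance of 0.0240, let-7c-2-3p at 0.0277 and let-7a-1-3p at 0.0298. The counting SE of miR-34a-5p was 0.16 (WI) and 0.18 (IR) on these axes. This is wider than the distances, so the order of its neighbours is not resolved. The reads of let-7c-2-3p (155, 247 and 131) and let-7a-1-3p (155, 248 and 131) were almost the same. Whether these arms share reads was not examined, so they may not be separate neighbours. In total, 21 microRNAs lay within 0.2 of miR-34a-5p. Around miR-34c-5p no microRNA lay that close. Its counting SE on each axis was 0.39, wider than this distance, so the lack of neighbours does not set its course apart. The nearest were miR-10b-5p at 0.257, miR-434-3p at 0.383 and miR-677-5p at 0.429. The closest, mmu-miR-10b-5p, stood at 463, 701 and 942 CPM, also lowest in Sham and highest in IR. These distances rest on 3 libraries and share the Sham library on both axes.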

How the data were processed

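Small RNA libraries from mouse liver were compared, 1 per group, grouped by sample title. The deposited values are raw counts of reads per mature microRNA. The authors trimmed reads, kept them by length, aligned them with Bowtie 0.12.7, sorted them with HTSeq and counted them with miRDeep2. The study names mm9 for this step, while the submitters' processing notes name mm10. The count data carry no coordinates, and hairpin positions are from GENCODE on mm9. Without molecular identifiers, PCR copies count as reads.

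Counts were scaled by TMM (edgeR 4.0.16, R 4.3.3; factors 0.961 to 1.03). Log2 fold changes were taken on log2(CPM + 0.1), which understates changes of rare microRNAs, and their SE is from counts alone. All microRNAs with at least 1 read were tested by Fisher's exact test, two-sided (scipy 1.17.1). The quasi-likelihood test needs replicates and could not be fitted. Ratios and odds ratios have exact conditional intervals, and levels have Poisson intervals. The procedure was checked on simulated counts without TMM scaling and without spread between libraries. The planted changes were larger than those called for miR-34, so the check does not cover calls of that size.

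Named microRNAs are the members, their seed relatives, listed p53-linked and cell marker microRNAs, and the 3 nearest in course to each member with at least 30 reads. Members and lists were chosen with earlier results of these data known. Alternatives used DESeq2 1.42.0 size factors, other totals, pseudocounts, thresholds, thinned counts and edgeR's exact test.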

Additional observations from a re-analysis of the deposited data

How the results depend on the processing

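Of the 3 counts of called miR-34 members, each depended on some choice. In WI against Sham 0 became 1 (miR-34c-5p) at p under 0.05. Leaving the 10 most abundant out of the totals gave Fisher's exact p = 0.0748 (miR-34a-5p) and 0.0579 (miR-34c-5p) there. Genome-aligned totals gave Fisher's exact p = 0.000878 (miR-34a-5p) and 0.0117 (miR-34c-5p), with neither called. In IR against WI 1 became 0 with library totals, with DESeq2 size factors, when the 10 most abundant microRNAs were left out of the totals, with a pseudocount of 1, a fold change above 2, thinned counts, and edgeR's exact test at a coefficient of variation of 0.1, 0.2 or 0.4. The log2 fold change of miR-34a-5p stayed between -0.51 and -0.91 in all settings. In IR against Sham 1 became 0 with genome-aligned totals and in edgeR's exact test at 0.1, 0.2 or 0.4. With genome-aligned totals miR-34c-5p reversed for IR/WI (-0.00997). These totals put the median log2 fold change of all tested microRNAs at 0.20 (WI/Sham), -0.33 (IR/WI) and -0.11 (IR/Sham). The causes of these changes were not tested.

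Without a fold threshold, 6, 10 and 8 of the 12 p53-linked microRNAs were called for WI/Sham, IR/WI and IR/Sham. With it the counts were 0, 3 and 2. Over all tested microRNAs the counts without it were 96 of 782, 149 of 789 and 124 of 774. MicroRNAs with many reads pass the p threshold at small changes. MiR-192-5p passed in each comparison, at log2 fold changes of 0.09, -0.12 and -0.04. At a coefficient of variation of 0.2 or 0.4 the count of the p53-linked list was 0 in both comparisons with IR. For IR/WI it was 2 at 0.1 and after thinning, without miR-200c-3p, and 4 with genome-aligned totals, where miR-200c-3p was lost and miR-143-3p and miR-15a-5p were added. Ratios within a library and shares of arms stayed within their intervals. Over all microRNAs, calls went from 15, 73 and 55 in the same order to 4, 33 and 24 at 0.2, to 1, 6 and 10 at 0.4, and to 96, 149 and 124 without a fold threshold. WI against Sham also gave 33 at p under 0.05, 9 at a fold change above 2 and 25 (23 higher) with genome-aligned totals, and 7 of 17 were higher with library totals. IR against WI gave 111 (38 higher) with genome-aligned totals, against 49 of 73. IR against Sham gave 35 at a fold change above 2, and 35 of 63 were higher with genome-aligned totals, against 44 of 55.

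Leaving out a replicate was not possible, and no paired analysis was possible because each group has 1 library. Depth limits the 4 rare arms most, as a library with 0 reads allows up to 0.785 CPM.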
